A study of Rattus norvegicus with 9 samples.

Results

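Liver from rats given CLP after a sham procedure was compared with liver from rats given a sham procedure at both steps. The comparison takes the 3 arrays titled Sham-CLP against the 3 arrays titled Sham-Sham, 6 of the 9 arrays of the series, and follows all genes measured rather than a chosen pathway. CLP is left unexplained in the labels and in rodent work stands for cecal ligation and puncture, in which gut bacteria leak into the abdomen and cause sepsis. The remaining 3 arrays, titled Burn-CLP, entered the normalization, the filter on dim probe sets and the shared estimate of spread, and are otherwise given only as values beside a few results. RNA was taken from whole liver, and the labels used here give no strain, age, sex, time after CLP or pooling of animals. Nothing in them ties each array to an animal of its own, so p-values measure only the spread between these arrays, which may be technical.

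In sepsis, bacterial products and cytokines reach the liver through the portal blood, and hepatocytes answer with the acute phase response, in which secreted defence proteins are made in greater amounts. Stress hormones act on the same cells and favour the breakdown of amino acids. The liver also makes cholesterol, bile acids, most plasma proteins and the enzymes that clear drugs, so a whole-liver profile reads all of these together.

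Each value below is a fluorescence signal of a probe set, a group of short oligonucleotides for 1 transcript. Signals were quantile normalized and set to a floor of 64.3 where lower, and 13535 probe sets with at least 3 of 9 arrays above the floor were tested, of which 11121 carried 1 gene symbol, for 9339 genes. Differences are log2 values, Sham-CLP minus Sham-Sham, with the standard error (SE) from limma, for 3 arrays per group. A probe set is called where its adjusted p is under 0.05 (limma, Benjamini-Hochberg over the 13535). Where some or all arrays of the dimmer group lie at the floor, the difference is a lower bound on its size. A probe set is termed nominal where the unadjusted p from limma is under 0.05, called probe sets included. Mean correlations with the other 8 arrays ran from 0.922 to 0.949 apart from Sham-Sham 1, at 0.890. For Sham-Sham 3 the correlation was 0.897 with Sham-Sham 1, 0.948 with Sham-Sham 2 and 0.954, 0.958 and 0.966 with the Sham-CLP arrays. The median SD of the log2 signal over 3 arrays was 0.32 in Sham-Sham and 0.19 in Sham-CLP, so the sham group was the more variable.

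Hepatocyte transcripts were bright on all 6 arrays, as liver RNA would give. Alb, which encodes albumin, read 33719, 35699 and 35699 in Sham-Sham and 32863, 35699 and 35699 in Sham-CLP, and differed by -0.01 ± 0.15. These values sit at or near the top of the normalized scale, where the ranks of the brightest transcripts set the value and a change could be compressed. Among the 7 hepatocyte markers 0 were called and Apoa1, an apolipoprotein of high density lipoprotein, was the 1 nominal gene (0.41 ± 0.17). The summed signal of the 7 ran from 140030 to 149760 in Sham-Sham and 149280 to 163510 in Sham-CLP.

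Across all genes the differences were small and balanced. Of 13535 probe sets, 6839 had a positive and 6696 a negative difference, the 5th and 95th percentiles were -0.66 and 0.73, and the median was 0.005. Beyond 2-fold lay 251 probe sets in the higher direction and 168 in the lower. Only 8 probe sets (0.0591%) were called, 6 higher and 2 lower. Nominal were 789 higher (5.83%) and 798 lower (5.9%), 11.7% together. The 3 Sham-CLP signals lay wholly above the 3 Sham-Sham signals for 8.1% of probe sets and wholly below for 8.65%, 16.7% together. With the deposited scaling in place of quantile normalization, the share of higher among nominal probe sets went from 49.7% to 29.3% (566 higher, 1365 lower), and the median of all probe sets was -0.08.

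The shares differed by brightness. Probe sets were ranked by mean signal and cut into 5 bins of equal size. In the dimmest bin, with mean signals from 65.5 to 118, 4.91% were nominal and higher and 9.75% nominal and lower. In the brightest bin, above 772, the shares were 4.69% and 3.69%, and 22.1% of probe sets had groups that did not overlap. Among the 168 probe sets lower by more than 2-fold, 75 lay in the dimmest bin and 13 in the brightest. Among the 251 higher ones the numbers were 20 and 45. Large negative differences were thus most frequent in dim probe sets near the floor, and bright transcripts with large differences were mostly higher in Sham-CLP.

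**Figure D1:**
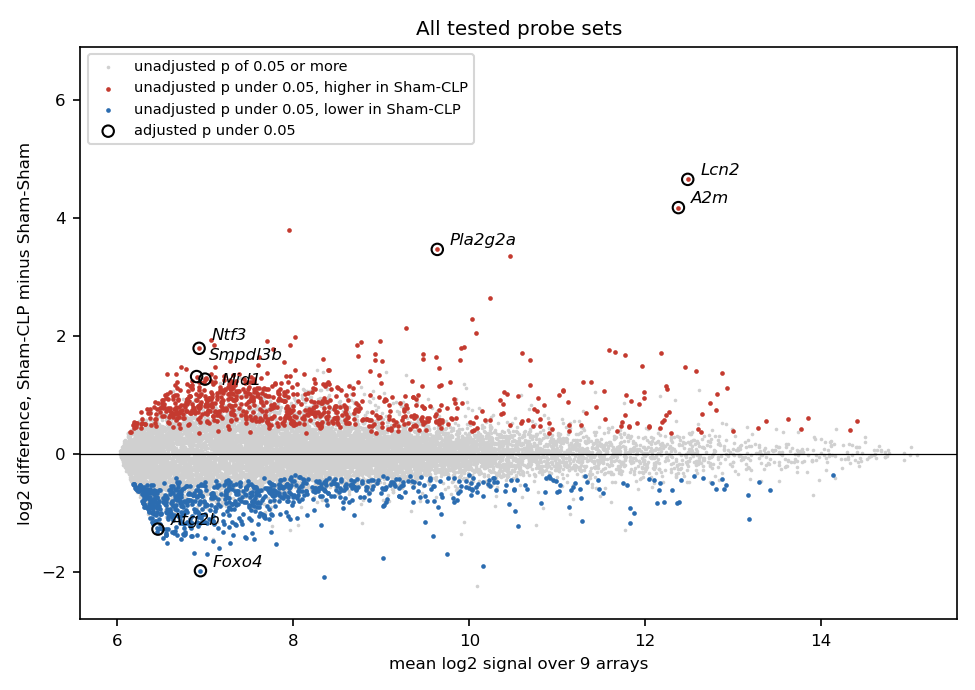
Log2 difference (Sham-CLP minus Sham-Sham, 3 arrays each) against the mean log2 signal over 9 arrays, 1 point per probe set for all 13535 tested; red and blue points have an unadjusted p under 0.05 and black rings an adjusted p under 0.05. Lcn2 (4.66) and A2m (4.18) stand apart at high signal, and the 2 rings below 0 are Foxo4 and Atg2b at low signal.

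A single sham array set how many genes were called. Without Sham-Sham 3, 347 of 13425 probe sets were called, 190 higher and 157 lower, against 4 to 13 when any other array was left out. All 347 had the same sign in the fit of 9 arrays, where 284 of them were nominal and 169 had groups that did not overlap. That fit holds the same arrays besides Sham-Sham 3, so this agreement is no further support for the calls. Without Sham-Sham 3, Snrnp40 (-1.49 and 1.67) and Abcc5 (-1.17 and 1.63) were each called in opposite directions at different probe sets. Over all tested probe sets the median distance from the Sham-CLP mean was 0.22 for Sham-Sham 3, 0.28 for Sham-Sham 2 and 0.41 for Sham-Sham 1, on the log2 scale. Over the nominal probe sets, which were selected for a difference between these arrays, it was 0.47, 0.73 and 0.99 in the same order. Sham-Sham 3 therefore lay closest to the CLP arrays. A fit that weights arrays by their own scatter called 69 probe sets, 43 higher and 26 lower. Its lowest weight was that of Sham-Sham 1 (0.307), against 0.543 for Sham-Sham 3. For named genes called only without Sham-Sham 3, the adjusted p of that fit is given in the same paragraph, or, for cholesterol synthesis, the number of genes called. Of the fits with 1 array left out it had the most calls, and it leaves out the sham array closest to the CLP arrays. Its adjusted p-values take no account of that and are no further support for a difference. Why Sham-Sham 3 lies close to the CLP arrays was not tested. Calls also moved with the Burn-CLP arrays, and without Burn-CLP 2, Spink1 (adjusted p = 0.0436), the dimmer probe set of Lss (0.00474), Fabp5 (0.0222), Slc16a10 (0.0387) and Atp5if1 (0.0222), not called with all arrays, had an adjusted p under 0.05.

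**Figure D2:**
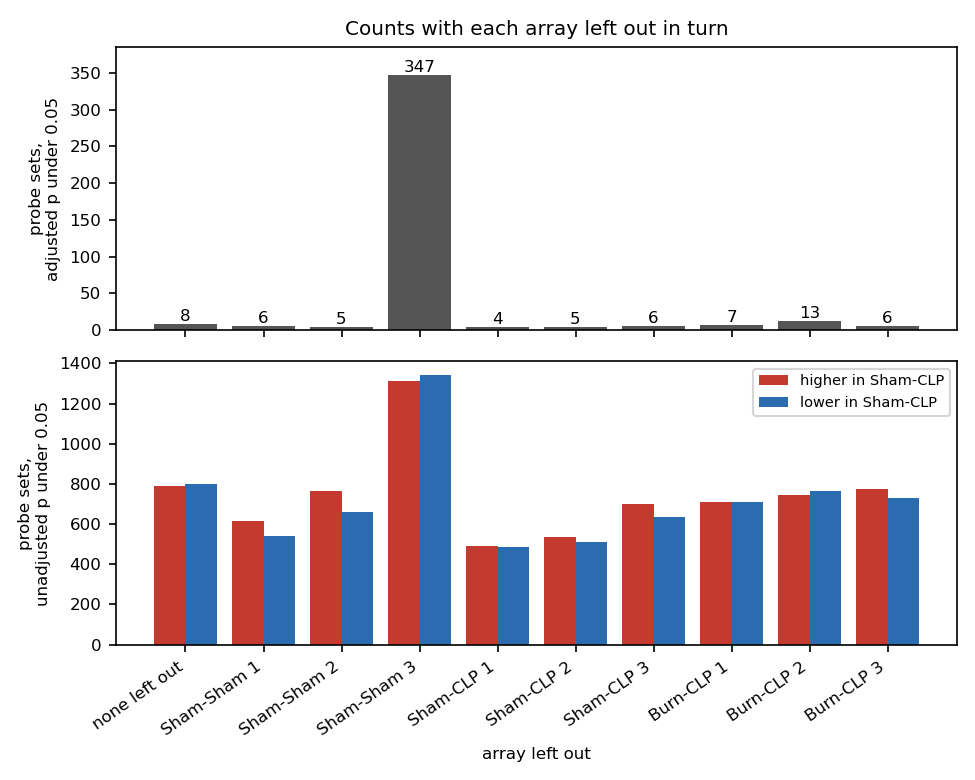
Number of probe sets called (upper panel, adjusted p under 0.05) and nominal (lower panel, unadjusted p under 0.05, red higher and blue lower in Sham-CLP) with none and with each of the 9 arrays left out in turn. The bar without Sham-Sham 3 stands at 347 called probe sets, against 8 with all arrays.

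The strongest changes were in secreted proteins of the acute phase. Lcn2 encodes lipocalin 2, which withholds iron from bacteria by binding their siderophores. Its signals were 618, 637 and 752 in Sham-Sham and 19319, 20703 and 11853 in Sham-CLP, so the groups were far apart, with Sham-CLP 3 the lowest of the CLP arrays. Lcn2 rose 25.2-fold (4.66 ± 0.24 SE, adjusted p = 6.83e-05, limma). A2m, the broad protease inhibitor alpha-2-macroglobulin and a classical acute phase protein of the rat, read 629, 1222 and 544 in Sham-Sham and 14961, 17662 and 9377 in Sham-CLP. It rose 18.1-fold (4.18 ± 0.33, adjusted p = 0.00184), and Sham-CLP 3 was again the lowest CLP array. Pla2g2a, a secreted phospholipase A2 that attacks bacterial membranes, read 142, 72.7 and 168 in Sham-Sham and 1216, 1362 and 1422 in Sham-CLP. It rose 11.1-fold (3.47 ± 0.32, adjusted p = 0.00398), and here the CLP arrays differed little from each other. Lcn2 and A2m were called under all 17 alternative settings and Pla2g2a under 16 of 17, with an adjusted p of 0.0503 in the exception.

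Ntf3, Smpdl3b and Mid1 rose from signals at or beside the floor. Ntf3 encodes neurotrophin 3, a growth factor of nerve cells. It lay at the floor on the 3 Sham-Sham arrays and at 229, 220.3 and 218 in Sham-CLP, a rise of at least 3.46-fold (adjusted p = 0.00398). Smpdl3b, of the acid sphingomyelinase-like family, read 66.5 in Sham-Sham 1, the floor in the other 2, and 156, 172 and 156 in Sham-CLP, a rise of at least 2.48-fold (adjusted p = 0.0142). Mid1, a ubiquitin ligase on microtubules, went from the floor on 3 arrays to 166, 157 and 143, at least 2.41-fold (adjusted p = 0.0422). These 3 genes are called on small absolute signals, yet their Sham-CLP arrays lay close together. Ntf3 was called under the 16 alternatives that tested it, Smpdl3b under 8 of 16 and Mid1 under 4 of 16.

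Both genes that fell were dim. Foxo4, a forkhead transcription factor held out of the nucleus by insulin signalling, read 428, 289 and 255 in Sham-Sham and 73.2, 69.6 and 101 in Sham-CLP. It fell 3.94-fold (-1.98 ± 0.26, adjusted p = 0.0422) with no overlap between groups. Atg2b, which carries lipid to the growing autophagosome, read 187, 144 and 140.1 in Sham-Sham and lay at the floor on all 3 Sham-CLP arrays, at least 2.42-fold lower (adjusted p = 0.0422). With only the brightest probe set of each gene counted, 1 gene was called lower, Foxo4. The call of Atg2b is thus at a dimmer probe set, and its brightest one was not called. Foxo4 was called under 4 of 17 alternatives and Atg2b under 3 of 16, so these 2 calls are the least firm of the 8, along with Mid1.

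**Figure D3:**
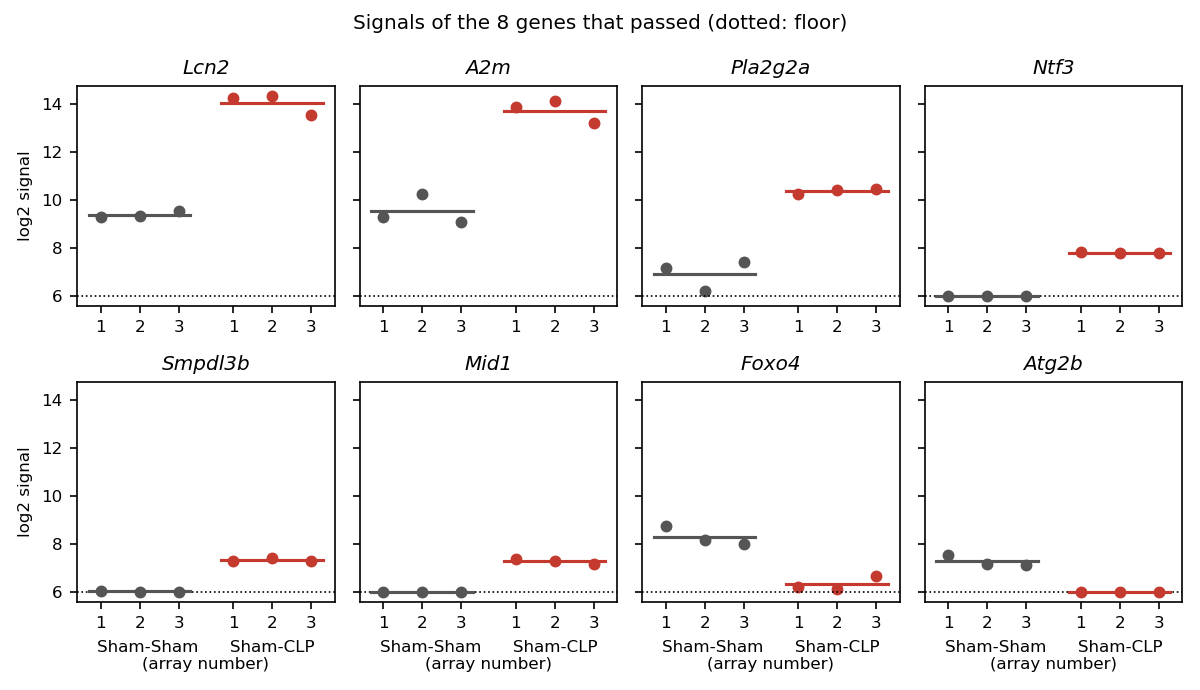
Log2 signal of the 8 called genes on each Sham-Sham array (grey) and each Sham-CLP array (red), with the group mean as a line and the floor dotted. Sham-Sham arrays lie at the floor for Ntf3 and Mid1, and Sham-CLP arrays do for Atg2b.

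The promoters of the called rises are shown because these are the genes whose transcripts the data show to increase. RefSeq (GRCr8) gave the 250 bases before the start for 5 of the 6; A2m is named only. Letters searched on both strands were the STAT element TTCNNNGAA, the NF-kB element GGANTTNCC, the SREBP element TCACNCCAC and the CCAAT box CCAAT. Capitals mark any match, each line runs 5′ to 3′ toward the start, and the positions are Lcn2 chr3:36081781-36082030 (minus strand), Pla2g2a chr5:156359475-156359724 (plus strand), Ntf3 chr4:160670624-160670873 (minus strand), Smpdl3b chr5:150250689-150250938 (minus strand) and Mid1 chrX:27809921-27810170 (minus strand).
Lcn2: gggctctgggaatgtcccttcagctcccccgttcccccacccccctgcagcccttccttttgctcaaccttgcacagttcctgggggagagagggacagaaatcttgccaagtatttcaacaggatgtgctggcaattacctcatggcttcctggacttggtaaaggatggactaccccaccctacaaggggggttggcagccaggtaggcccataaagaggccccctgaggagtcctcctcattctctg
Pla2g2a: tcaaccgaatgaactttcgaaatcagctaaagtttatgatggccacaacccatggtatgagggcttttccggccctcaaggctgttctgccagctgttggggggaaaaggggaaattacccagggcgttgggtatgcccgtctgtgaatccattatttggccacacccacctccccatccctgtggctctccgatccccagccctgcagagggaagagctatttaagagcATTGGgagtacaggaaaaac
Ntf3: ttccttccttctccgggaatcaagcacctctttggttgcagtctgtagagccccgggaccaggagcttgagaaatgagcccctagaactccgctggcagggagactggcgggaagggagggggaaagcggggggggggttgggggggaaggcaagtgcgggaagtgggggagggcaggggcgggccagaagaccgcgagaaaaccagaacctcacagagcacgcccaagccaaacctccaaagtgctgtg
Smpdl3b: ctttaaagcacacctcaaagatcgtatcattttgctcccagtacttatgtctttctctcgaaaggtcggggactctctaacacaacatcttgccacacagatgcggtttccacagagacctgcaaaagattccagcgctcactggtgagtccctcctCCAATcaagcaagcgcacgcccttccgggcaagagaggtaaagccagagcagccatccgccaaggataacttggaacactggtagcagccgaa
Mid1: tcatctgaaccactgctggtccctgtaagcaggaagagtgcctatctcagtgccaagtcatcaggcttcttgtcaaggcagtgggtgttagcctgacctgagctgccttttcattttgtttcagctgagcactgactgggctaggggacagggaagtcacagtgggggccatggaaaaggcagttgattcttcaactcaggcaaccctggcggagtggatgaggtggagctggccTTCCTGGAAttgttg
Mid1 held 1 STAT match, starting 15 bases before the start, and Pla2g2a and Smpdl3b held 1 CCAAT box each. Among 33469 promoters of the table the STAT letters were in 7.67%, the NF-kB letters in 3.03%, the SREBP letters in 0.974% and CCAAT in 34.0%. A match is a stretch of letters and not a measured site, and its absence says only that these letters are not in this window. Each element was searched as 1 fixed set of letters. Sites written in other letters, NF-kB sites among them, were not searched and are left unmarked, in Lcn2 as in the others.

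Most other acute phase transcripts differed by less than 2-fold, with more of them higher than lower in Sham-CLP. Of 40 genes listed, 29 were on the array and 28 were tested. In these, 3 were called (Lcn2, A2m and Pla2g2a), 8 were nominal and higher and 0 nominal and lower, where the background over all genes is 0.075% called, 5.73% nominal higher and 5.77% nominal lower. These background shares apply to the lists below too. In 12 of the 28 the Sham-CLP arrays lay above the Sham-Sham arrays and in 2 below, where 8.35% and 8.75% of all genes did. Positive were 21 and negative 7. The list's median was 0.19, against 0.00 over all genes. With the deposited scaling it was 0.53 relative to all probe sets, and 15 genes were nominal and higher. Spink1, a trypsin inhibitor that is also an acute phase protein, read 460.4, 211 and 297 in Sham-Sham and 3619, 3463 and 2481 in Sham-CLP. The groups were far apart (3.36 ± 0.53, adjusted p = 0.0838) although the test was not passed. At the remaining probe sets of Spink1 the difference was 2.65 ± 0.51 and 0.58 ± 0.20. Timp1, an inhibitor of matrix metalloproteases, read 227, 98.2 and 382 and 699.7, 814 and 509 (1.70 ± 0.48, adjusted p = 0.306, chosen after its value was seen). Lbp, which hands lipopolysaccharide to CD14, read 3182, 4113 and 4866 in Sham-Sham and 7382, 7804 and 6559 in Sham-CLP (0.86 ± 0.22). Orm1, the plasma carrier orosomucoid, read 16888, 14961 and 17576 and 25906, 23816 and 22877 (0.56 ± 0.15), a modest difference in one of the brightest transcripts of the array. Without Sham-Sham 3, Spink1 and Timp1 were called too (adjusted p = 0.0366 and 0.0489). Haptoglobin (Hp, 0.12 ± 0.14) and fibrinogen alpha (Fga, -0.02 ± 0.17), chosen after their values were seen, stood close to 0 at signals where the scale may be compressed.

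Genes of cholesterol synthesis had the highest median of the 44 lists. The pathway runs from acetyl-CoA through mevalonate, isoprenoids and squalene to lanosterol and cholesterol, and in hepatocytes it is switched on by SREBP-2 when sterols in the endoplasmic reticulum are low. Of 27 genes listed, 21 were tested, with a median difference of 1.15 against 0.00 over all genes. None passed over all probe sets (0 called), while 16 were nominal and higher and 1 nominal and lower; in 14 the 3 Sham-CLP arrays lay above the 3 Sham-Sham arrays, where 8.35% of all genes did. The median kept its sign under each setting tried, from 0.95 to 1.43.

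At the mevalonate end, Acat2, which joins acetyl-CoA units, read 196, 205 and 872 in Sham-Sham and 1627, 1574 and 1173 in Sham-CLP (2.14 ± 0.56). Pmvk, phosphomevalonate kinase, read 634, 455 and 507 and 1158, 973 and 979 (0.97 ± 0.18), with the 3 sham arrays close together. Idi1, the isomerase that makes the reactive isoprene unit, read 489, 378 and 1101 and 2162, 2529 and 1628 at the probe set with the clearer separation (1.82 ± 0.38). Fdps, farnesyl diphosphate synthase, read 2907, 2792 and 7781 and 10244, 11113 and 10338 (1.41 ± 0.35). For Acat2, Idi1 and Fdps, Sham-Sham 3 was well above the other sham arrays and below all CLP arrays.

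Genes of the sterol end were higher on all 3 CLP arrays as well. Sqle, squalene epoxidase and a rate-setting enzyme of the pathway, read 442, 196 and 1266 in Sham-Sham and 2762, 2872 and 1603 in Sham-CLP (2.28 ± 0.60, adjusted p = 0.292). Lss, lanosterol synthase, read 759.8, 302 and 674 and 2402, 2395 and 1928 (2.05 ± 0.40), and its dimmer probe set, with 2 sham arrays at the floor, read 999.9, 1136 and 934 in Sham-CLP and differed by at least 3.80. In Lss the highest sham array was Sham-Sham 1, not Sham-Sham 3. Ebp, the sterol isomerase, read 1872, 2099.5 and 3236 and 6504, 6427 and 6784 (1.49 ± 0.21, adjusted p = 0.0553), the closest of the list to the threshold. Cyp51, lanosterol demethylase, differed by 1.15 ± 0.27 and 1.06 ± 0.25 at its 2 probe sets. The nominal member in the other direction was Insig2, an anchor that holds SREBP in the endoplasmic reticulum, with 7855, 6443 and 7000.5 in Sham-Sham and 3861, 4091 and 4043 in Sham-CLP (-0.82 ± 0.27, chosen after its value was seen).

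Calls among these genes depended most on Sham-Sham 3. The list's median signal, centred gene by gene over the 9 arrays, stood at -0.68 and -0.87 in Sham-Sham 1 and 2, at 0.33 in Sham-Sham 3, and at 0.74, 0.63 and 0.59 in Sham-CLP. Without that array 12 of the 21 genes were called, all higher, in a fit that called 347 of 13425 probe sets. Among the 12 were Sqle (2.98 ± 0.46, adjusted p = 0.0204, limma), Acat2 (2.83 ± 0.38, 0.0135), Fdps (1.89 ± 0.19, 0.0077) and Ebp (1.74 ± 0.17, 0.00726). The list's median was then 1.43. With Sham-Sham 3 kept, 6 genes of the list were called in the fit with array weights, all higher. The filter for signals above the floor on all 6 arrays gave 1 call, higher, and so did trend and robust eBayes. In Burn-CLP, which shares the same sham arrays, the list's median difference from Sham-Sham was 0.42, with 1.09 for Sqle, 0.84 for Ebp and -0.01 for Pmvk. The 2 CLP groups were not tested against each other here.

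**Figure D4:**
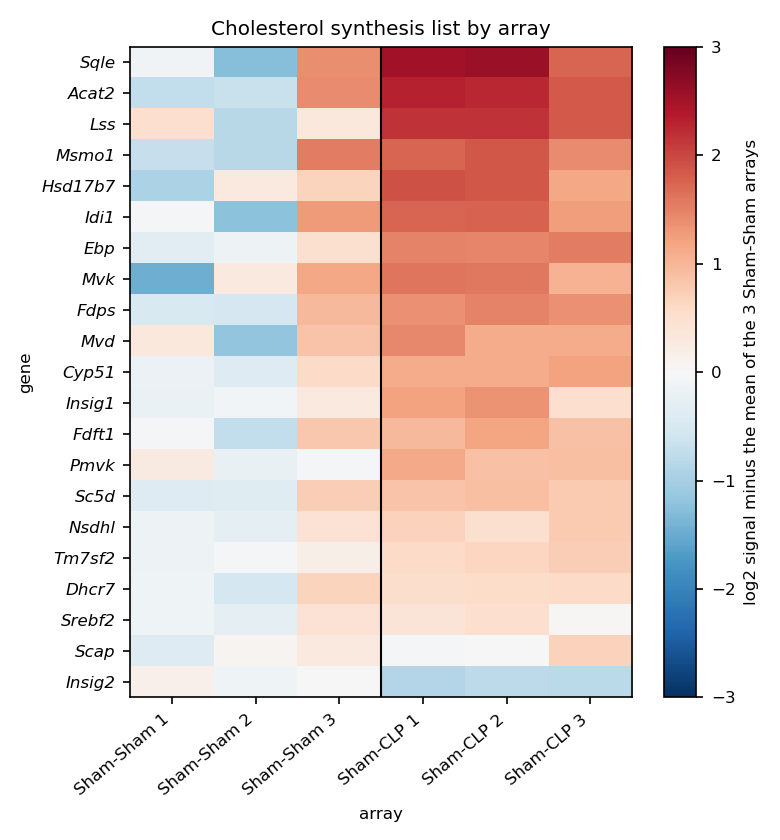
Log2 signal of the 21 tested cholesterol genes on the 6 arrays, minus the mean of the 3 Sham-Sham arrays, in colour from -3 (blue) to 3 (red). The Sham-CLP columns are red for most genes, Sham-Sham 3 is red for many, and Insig2 (-0.82) is the member that is blue on all 3 Sham-CLP arrays.

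Promoters of 4 cholesterol genes are shown because these genes differed together. They were chosen after their values were seen, and all 4 hold a CCAAT box. The plan had been to show those with the SREBP letters, which none held. Acat2, Cyp51, Dhcr7 and Scap, also higher in Sham-CLP, hold no CCAAT box in this window and are not shown. RefSeq gave a promoter for 18 of the 21. The SREBP letters TCACNCCAC were in 0 of the 18, and other forms of the element were not searched. CCAAT was in 14 of the 18 (77.8%), against 35.6% of the 7774 promoters of all tested genes, a description without a test and without matching for base composition. NF-Y, the factor that binds CCAAT boxes, is known to act beside SREBP at sterol genes, and its part here was not tested. Capitals mark CCAAT in either orientation, or a STAT match in Ebp, and the positions are Lss chr20:12118231-12118480 (minus strand), Ebp chrX:16971212-16971461 (plus strand), Idi1 chr17:66547525-66547774 (minus strand) and Hsd17b7 chr13:84722755-84723004 (minus strand).
Lss: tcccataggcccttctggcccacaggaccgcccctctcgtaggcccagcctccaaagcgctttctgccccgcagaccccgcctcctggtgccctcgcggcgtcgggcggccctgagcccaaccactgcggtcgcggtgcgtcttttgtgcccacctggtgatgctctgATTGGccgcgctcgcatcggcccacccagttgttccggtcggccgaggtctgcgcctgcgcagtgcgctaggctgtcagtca
Ebp: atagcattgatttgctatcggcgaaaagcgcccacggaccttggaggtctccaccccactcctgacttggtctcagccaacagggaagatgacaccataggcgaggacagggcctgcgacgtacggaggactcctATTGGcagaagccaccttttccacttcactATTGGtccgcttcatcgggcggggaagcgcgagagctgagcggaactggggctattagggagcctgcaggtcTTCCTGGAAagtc
Idi1: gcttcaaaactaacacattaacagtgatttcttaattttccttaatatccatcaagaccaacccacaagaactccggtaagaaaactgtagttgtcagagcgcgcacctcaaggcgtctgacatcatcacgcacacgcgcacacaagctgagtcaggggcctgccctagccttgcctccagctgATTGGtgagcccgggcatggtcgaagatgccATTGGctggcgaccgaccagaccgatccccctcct
Hsd17b7: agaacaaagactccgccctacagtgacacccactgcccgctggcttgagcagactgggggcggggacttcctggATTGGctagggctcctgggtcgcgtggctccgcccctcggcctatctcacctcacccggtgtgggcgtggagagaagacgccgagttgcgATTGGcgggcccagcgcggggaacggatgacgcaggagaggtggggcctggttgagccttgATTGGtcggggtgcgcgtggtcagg
Lss held 1 CCAAT box, Ebp and Idi1 held 2 each and Hsd17b7 held 3. These genes differed by 2.05, 1.49, 1.59 (brighter Idi1 probe set) and 1.64. Pmvk, at 0.97, is named only.

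Several genes of fatty acid synthesis were nominally higher. Of 27 synthesis genes tested, 8 were nominal and higher, where 5.73% of all genes were, 0 nominal and lower, and 0 were called. The median was 0.12, with 14 members positive and 13 negative. Without Sham-Sham 2 or Sham-CLP 1, 5 were nominal and higher and the median was 0.04 and 0.05. Acss2, which makes acetyl-CoA from acetate, read 2044, 1365 and 2547 in Sham-Sham and 4657, 4545 and 4291 in Sham-CLP (1.23 ± 0.28). Acaca, acetyl-CoA carboxylase, read 698, 681 and 746 and 1393, 1229 and 1055 (0.78 ± 0.17), with tight sham arrays, and 1.09 ± 0.35 at its dimmer probe set. Acly, ATP citrate lyase, differed by 1.16 ± 0.35 and Pgd, of the pentose phosphate pathway that supplies NADPH, by 0.62 ± 0.16. Fasn, fatty acid synthase, chosen after its value was seen, differed by 1.46 ± 0.51. Without Sham-Sham 3, Acss2 (adjusted p = 0.042) and the dimmer probe set of Acaca (0.0482) were called.

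Of 39 oxidation and ketone genes tested, 9 were nominal and lower, 1 nominal and higher, and in 17 the Sham-CLP arrays lay below the Sham-Sham arrays, where 8.75% of all genes did. The median was -0.30, and -0.12 relative to all probe sets with the deposited scaling, under which 5 were nominal and lower. The number of nominal and lower genes was also 5 without Sham-Sham 2, Sham-CLP 1 or Sham-CLP 2, and 0 were called. Acot2, a mitochondrial acyl-CoA thioesterase, read 233, 319 and 395 in Sham-Sham and 101, 94.6 and 174 in Sham-CLP (-1.38 ± 0.40, adjusted p = 0.306). Etfdh, which passes electrons from fatty acid oxidation to ubiquinone, read 2771, 3306 and 2859.5 and 1707, 2027 and 2125 (-0.61 ± 0.16). The isomerase Eci1 differed by -0.81 ± 0.26 and carnitine acetyltransferase, Crat, by -0.58 ± 0.18. Without Sham-Sham 3 the list's median was -0.21 and 0 members were called.

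Fatty acid carriers stood on both sides. Of 25 genes of lipid droplets and fatty acid handling, 3 were nominal and higher and 5 nominal and lower. Fabp5, the epidermal fatty acid binding protein, read 502, 408 and 538 in Sham-Sham and 1439, 1586 and 2030.3 in Sham-CLP (1.80 ± 0.25, adjusted p = 0.0553). Fabp3, the heart form, read 381, 319 and 187 in Sham-Sham, while 2 Sham-CLP arrays lay at the floor and Sham-CLP 3 read 169 (-1.68 ± 0.39). Plin2, the coat protein of lipid droplets, read 4965, 6812 and 5073 and 2257, 2179 and 3311 at its brighter probe set (-1.13 ± 0.37), and 0.16 ± 0.37 at the dimmer. Mgll, monoglyceride lipase, differed by -1.60 ± 0.37 at a probe set with 1 Sham-CLP array at the floor. Without Sham-Sham 3, Fabp5 was called higher (adjusted p = 0.0204), and Fabp3 (0.042) and the lipoprotein receptor gene Vldlr (0.0358) were called lower. The 5 nominal and lower genes of the list became 2 without Sham-Sham 2, Sham-CLP 1 or Sham-CLP 2 and 3 without Sham-Sham 1 or Sham-Sham 3.

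Bile acid and nuclear receptor genes had medians near 0 with single large members. In 27 bile acid genes 3 were nominal and higher and 2 nominal and lower, with a median of -0.07. Nr0b2, the corepressor SHP that bile acids induce, read 1128, 1487 and 805 in Sham-Sham and 344, 333 and 656 in Sham-CLP (-1.39 ± 0.49, adjusted p = 0.36). Cyp7a1, the first and rate-limiting enzyme of bile acid synthesis, which SHP represses, read 2608, 3555 and 2386 and 8444, 7722 and 2999 (1.05 ± 0.45, chosen after its value was seen). Sham-CLP 3 was the CLP array nearest the shams in both genes, just below them in Nr0b2 and within their range in Cyp7a1. Abcb4, the phospholipid exporter of bile, differed by -0.82 ± 0.31 and Slc27a5, which activates bile acids, by 0.59 ± 0.19. Among 38 liver transcription factors and nuclear receptors, Foxo4 was the 1 called gene; Foxa3, a hepatocyte pioneer factor, read 489.8, 449.6 and 615 and 825, 865 and 1013 (0.81 ± 0.18, adjusted p = 0.0395 without Sham-Sham 3), and the retinoic acid receptor Rara differed by -1.03 ± 0.34.

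Amino acid breakdown and glucocorticoid response genes had medians above 0. In 49 breakdown genes 7 were nominal and higher, 1 nominal and lower and 0 called, with a median of 0.18 (0.11 without Sham-Sham 3, and 0.36 relative to all probe sets with the deposited scaling). Got1, cytosolic aspartate aminotransferase, read 2963, 3702 and 2936 in Sham-Sham and 8883, 10029 and 6277 in Sham-CLP (1.37 ± 0.21, adjusted p = 0.0779, and 0.0358 without Sham-Sham 3). Bhmt, which remethylates homocysteine with betaine, read 5117, 6479 and 4035 and 14048, 14099 and 6949.8 (1.12 ± 0.31), Sham-CLP 3 lying just above the highest sham array. Tdo2, tryptophan dioxygenase, read 10922, 12511 and 8687 and 16888, 16603 and 15201 (0.61 ± 0.18), and Oat, ornithine aminotransferase, differed by 1.11 ± 0.32. The 21 amino acid transport genes had a median of -0.07, with 9 positive and 12 negative. Of these, 3 were nominal and higher and 1 nominal and lower. Slc16a10, a carrier of aromatic amino acids, differed by 1.99 ± 0.34 with 1 sham array at the floor (adjusted p = 0.0222 without Sham-Sham 3), and Slc38a4, a system A transporter, by 0.68 ± 0.17. The glutamate transporter Slc1a2 differed by 1.55 ± 0.44 with overlapping groups (adjusted p = 0.0204 without Sham-Sham 3), and Slc3a1, of the cystine transporter, by -0.79 ± 0.23.

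The 28 genes of the glucocorticoid list had a median of 0.45, with 9 nominal and higher, 0 nominal and lower and Lcn2 called. Over all genes 5.73% were nominal and higher. Without Sham-CLP 1 the median was 0.24 and without Sham-CLP 2 it was 0.26, with 6 nominal and higher in each case. Several members also stand in other lists, Lcn2, Got1, Tdo2 and Orm1 among them. The immediate early list, genes that stress switches on within minutes, had a median of 0.34 over 37 genes, with 30 positive but only 4 nominal and higher (1 without Sham-CLP 1 or Sham-CLP 2, and 2 without Sham-Sham 1). Dusp1, a phosphatase that turns off stress kinases, read 130.4, 399.8 and 211 and 957, 1183 and 452 at its dimmer probe set (1.85 ± 0.44) and overlapped at the brighter (1.01 ± 0.39). Klf4, a zinc finger factor, had Sham-Sham 1 at the floor and differed by 1.03 ± 0.28. Dusp6, of the same phosphatase family as Dusp1, differed by 1.91 ± 0.49 with Sham-Sham 2 at the floor (adjusted p = 0.0223 without Sham-Sham 3). That probe set is not among those of the list, whose highest member stood at 1.06. Clock genes gave 3 nominal and higher of 15 (Per1 1.19 ± 0.53 and Per2 1.13 ± 0.35 among them), the remaining one being Bhlhe40, a repressor of the clock (1.20 ± 0.29, adjusted p = 0.0306 without Sham-Sham 3), and Nr1d1, which represses the clock's positive arm, stood at -0.76 ± 0.43. The time of day of tissue collection is not in the labels, so its part in these values was not tested.

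Genes of the endoplasmic reticulum included members on both sides. Among 42 tested, 5 were nominal and higher and 2 nominal and lower, and the median was -0.14 (-0.06 relative to all probe sets with the deposited scaling). The 5 nominal and higher genes became 2 or 3 without Sham-Sham 1, Sham-Sham 2, Sham-CLP 1 or Sham-CLP 2. Edem1, which sends misfolded glycoproteins to degradation, read 2812, 1875 and 1026 in Sham-Sham and 6427, 7206 and 4066 in Sham-CLP (1.71 ± 0.39). Retreg1, a receptor for autophagy of the endoplasmic reticulum, read 1031, 1844 and 639 and 4694, 5454 and 1847 (1.76 ± 0.51), with Sham-CLP 3 just above the highest sham array. Hyou1, a folding chaperone of the same compartment, stood lower instead, at 741, 747 and 714 and 428, 407 and 467 (-0.76 ± 0.17). Sdf2l1, a chaperone cofactor, differed by 0.73 ± 0.26. The list had 0 called genes.

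Among detoxifying and antioxidant enzymes 0 were called. In 33 antioxidant genes 5 were nominal and lower, where 5.77% of all genes were, and 1 was nominal and higher. Among the 5 were Gclc (-0.74 ± 0.31) and Gclm (-0.61 ± 0.25), the subunits of the enzyme that limits glutathione synthesis, and Txnrd1 (-0.53 ± 0.20). The 5 became 0 to 3 when any 1 of the 6 arrays was left out. Mt3, a metallothionein, was called lower without Sham-Sham 3 (adjusted p = 0.0156). In 42 conjugation enzymes 3 were nominal and lower and 2 nominal and higher, near the background of 5.77% and 5.73%. Ephx2, soluble epoxide hydrolase, read 1671, 2061 and 2525 and 336, 230.2 and 2154 (-1.90 ± 0.72), Sham-CLP 3 lying within the sham range. Gstm2, a glutathione transferase, read 7480.2, 6613 and 7525 and 3555, 4335 and 4269 (-0.83 ± 0.22), and Gstm1 read 11699, 12719.9 and 15082 and 8075, 8504 and 7722 (-0.69 ± 0.18); cross-hybridization within this family was not tested. Akr7a3, an aldehyde reductase outside the lists, read 1585, 1769 and 2899.8 and 656, 584 and 628 (-1.69 ± 0.35). In 39 cytochromes P450, 2 were nominal and higher and 3 nominal and lower, a share near the background of 11.5%, with Cyp4a8 at 1.21 ± 0.43 and Cyp3a18 at -0.61 ± 0.24.

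Inflammatory genes outside the acute phase proteins were not broadly higher. Among 31 cytokines, chemokines and their receptors 0 were nominal and higher and 2 nominal and lower. Tnf read 161, 109 and 90.9 in Sham-Sham and lay at the floor on all 3 Sham-CLP arrays (at least 1.82-fold lower, adjusted p = 0.272). Cx3cl1, a membrane-bound chemokine, read 65.3, 237 and 159.9 and 74.6, 64.3 and 64.3, with overlap. In 20 genes of lipopolysaccharide sensing 1 was nominal in each direction, Lbp as above and Nfkb2 (-0.69 ± 0.26). In 29 genes of the interferon response and MHC class I, 3 were nominal and lower (Gbp2 -1.10 ± 0.29, Oasl -0.86 ± 0.28, Ifit3 -0.52 ± 0.21) and 0 nominal and higher. Cd74, the invariant chain of MHC class II, read 1841, 1294 and 2324 and 1013, 1007 and 921 (-0.85 ± 0.27). Ripk3, a kinase of necroptosis, read 118, 117 and 135 and 236, 263 and 195 (0.90 ± 0.17) and was called without Sham-Sham 3 (adjusted p = 0.0397), where 2 cytokine genes were called in opposite directions, Tnf lower (adjusted p = 0.0399) and Ccl20, a chemokine, higher (0.0222).

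Markers of other liver cells were measured beside these results. In whole liver, fewer cells of a type and less RNA per cell cannot be told apart. No tested marker lay at the floor on all 6 arrays. Of 10 stellate cell and fibroblast markers, 9 were negative and 3 nominal and lower, Col1a1 (511, 477 and 331 and 226, 267 and 309, -0.71 ± 0.24), Col1a2 (-0.67 ± 0.24) and Acta2 (-0.59 ± 0.21). Their median was -0.50, -0.34 without Sham-Sham 1 and -0.69 without Sham-Sham 3, with 1 nominal without Sham-Sham 1 or Sham-CLP 1 and 5 without Sham-Sham 3 or Sham-CLP 3. Their summed signal ran from 6865 to 7760 in Sham-Sham and 4991 to 7107 in Sham-CLP. Of 15 lymphocyte markers 5 were nominal and lower, with the natural killer receptors Klrb1b at -1.37 ± 0.44 and Klrd1 at -0.62 ± 0.20, and sums from 2559 to 3152 in Sham-Sham and 2370.4 to 2444 in Sham-CLP; these sums did not overlap. Without Sham-Sham 2, 13 were tested, of which 2 were nominal and lower and 1 nominal and higher, and the median went from -0.20 to -0.0057. Without Sham-Sham 1 or any 1 Sham-CLP array 3 were nominal and lower. Of 7 endothelial markers 2 were nominal and lower, Tie1 (-0.81 ± 0.24) and Kdr (-0.65 ± 0.28), and 1 without any 1 sham array, Sham-CLP 1 or Sham-CLP 2. The median went from -0.23 to -0.07 without Sham-Sham 3 and to -0.47 without Sham-CLP 3, with sums from 3121 to 3618 in Sham-Sham and 2438 to 3036 in Sham-CLP. None of the 8 macrophage markers was nominal (0 genes), with C1qa at 0.18 ± 0.24 and sums from 14481 to 15813 in Sham-Sham and 14352 to 17001 in Sham-CLP. Of 6 neutrophil markers 3 were positive and 3 negative, with a median of -0.05, and 1 was nominal. This was S100a9, a subunit of calprotectin, with 2 sham arrays at the floor and 166, 203 and 252 in Sham-CLP (1.51 ± 0.40). Mmp8, Cxcr2 and Ncf1 were lower under each setting tried. The neutrophil sums ran from 738 to 1001 in Sham-Sham and 774 to 1083 in Sham-CLP. Bile duct markers summed to 1251 to 1425 in Sham-Sham and 1236 to 1349.6 in Sham-CLP. Of these 5 genes 2 were positive and 3 negative, with a median of -0.23. Spp1 stood at -0.74 ± 0.30, and Aqp1 was higher under each setting tried. Red cell markers summed to 12886 to 16067 in Sham-Sham and 11609 to 12774 in Sham-CLP and exocrine pancreas markers, all dim, to 1078 to 1399 in Sham-Sham and 779 to 932 in Sham-CLP, both without overlap. The part of these cell types in the gene results was not tested.

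**Figure D5:**
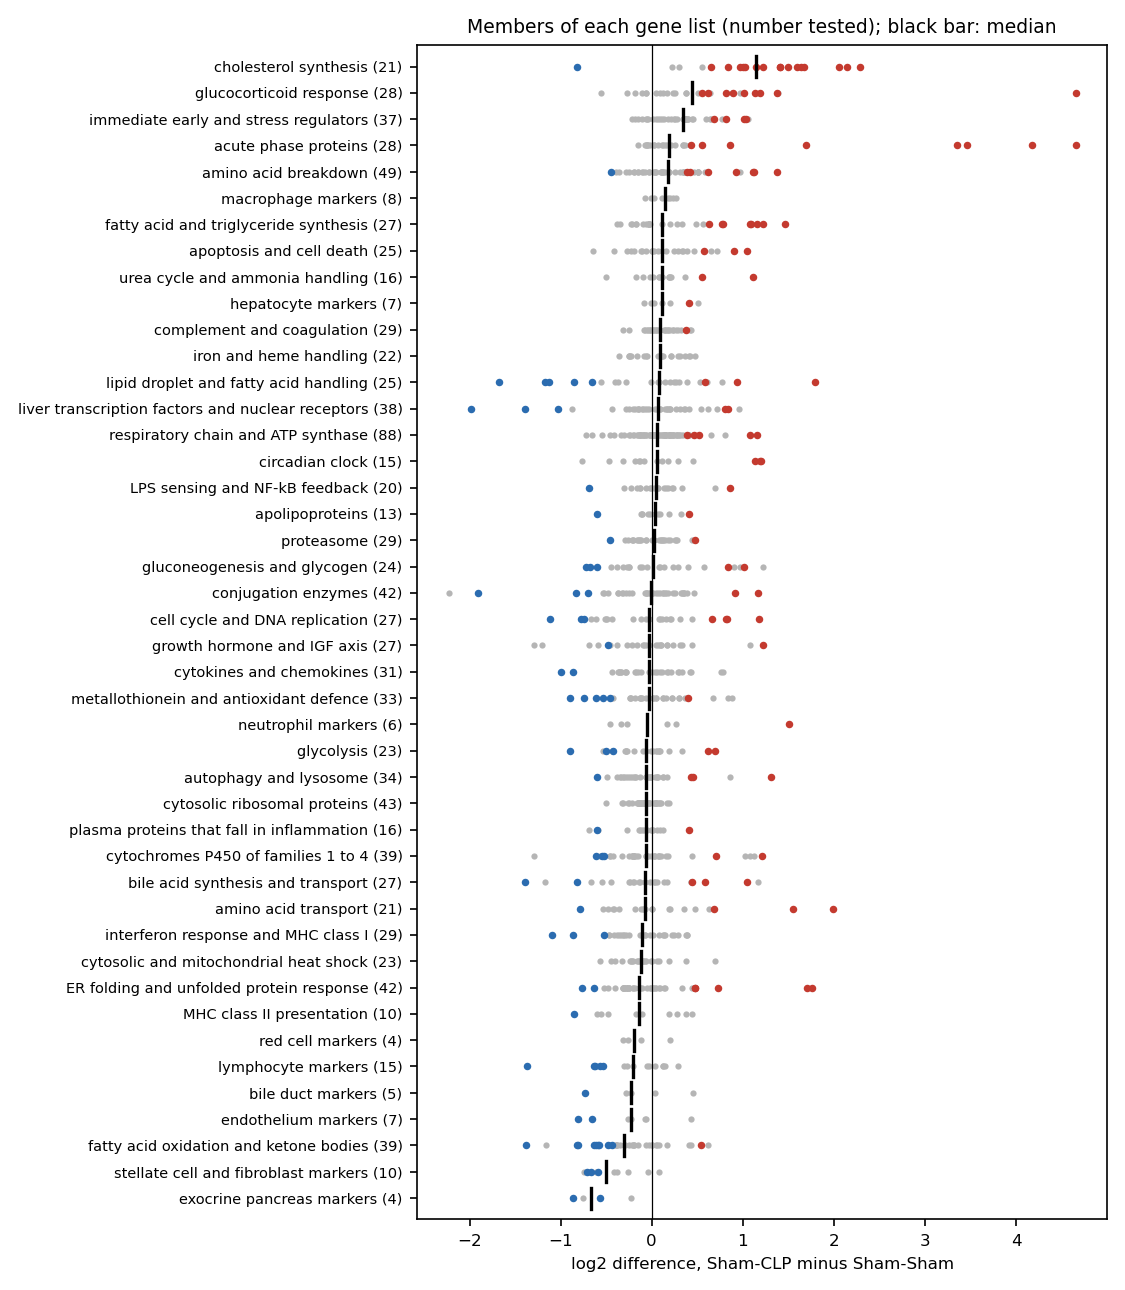
Log2 difference (Sham-CLP minus Sham-Sham) of each tested member of the 44 gene lists, ordered by the list's median (black bar), with the number of genes tested in brackets; red and blue points have an unadjusted p under 0.05, grey points do not. Cholesterol synthesis stands at the top with a median of 1.15, and most other medians lie within 0.2 of 0.

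The basal machinery of the cell had few nominal genes. Of 43 cytosolic ribosomal protein genes 0 were nominal, with a median of -0.06 that was 0.16 relative to all probe sets with the deposited scaling. Of 88 genes of the respiratory chain and ATP synthase 5 were nominal and higher, near the background of 5.73%, and 0 nominal and lower, under the 5.77%. Positive were 61 and negative 27, with a median of 0.06. Groups did not overlap in 13 higher and 1 lower, against 8.35% and 8.75% of all genes. The largest were Ndufa5 (1.16 ± 0.36) and the assembly factor Ndufaf5 (1.08 ± 0.28), with an adjusted p of 0.0174 and 0.0358 without Sham-Sham 3 (limma). The 5 nominal and higher genes became 8 without Sham-Sham 1 and 2 without Sham-CLP 1 or Sham-CLP 2. Of 29 proteasome genes 1 was nominal in each direction. Among 23 heat shock genes and 22 genes of iron and heme 0 were nominal. Among 29 complement and coagulation genes 1 was nominal and higher, the plasmin inhibitor Serpinf2 (0.38 ± 0.16). In 24 genes of gluconeogenesis and glycogen 2 were nominal and higher, with G6pc3 at 1.01 ± 0.27, and 3 nominal and lower, with Fbp2 at -0.72 ± 0.26. Without Sham-Sham 3, G6pc3 (adjusted p = 0.0358) and Fbp2 (0.033) were called. In 23 glycolysis genes the glucose transporter Slc2a1 stood at 0.69 ± 0.20 and the kinase Pgk1 at -0.90 ± 0.31. In the growth hormone axis Cish, a target of STAT5, read 136, 115 and 116 and 204, 202 and 557 (1.22 ± 0.37), Sham-CLP 3 being the highest by far. Among 25 genes of cell death, Bad, which binds BCL2 proteins, overlapped between groups (1.05 ± 0.43, adjusted p = 0.0319 without Sham-Sham 3). Among 27 cell cycle genes 4 were nominal and higher and 3 nominal and lower, and without Sham-Sham 3 the replication genes Mcm4 and Mcm3 and the kinase gene Cdk1 were called, Mcm3 higher (0.0358) and Mcm4 and Cdk1 lower (0.03 and 0.042).

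Further large differences outside the lists were in dim or single probe sets. An unadjusted p under 0.01 (limma) without overlap between groups was met by 216 higher probe sets (1.6%) and 175 lower ones (1.29%), of which 174 and 149 carried 1 symbol. By gene the shares were 1.57% and 1.32%. Some of the largest lay outside the lists. Atp5if1, an inhibitor of ATP hydrolysis by ATP synthase, differed by 1.94 ± 0.31 with 2 sham arrays at the floor (adjusted p = 0.0319 without Sham-Sham 3), and Nipal1, a magnesium transporter, by 1.85 ± 0.39 with 1 at the floor (adjusted p = 0.0324 without Sham-Sham 2). On the lower side, Nrep read 1826, 1094 and 867 in Sham-Sham and 196, 167 and 687 in Sham-CLP (-2.09 ± 0.50), Sham-CLP 3 lying apart from the other 2. Slc34a2, a phosphate transporter, read 584, 380 and 304 and 143, 140.2 and 169.6 (-1.44 ± 0.24, adjusted p = 0.0148 without Sham-Sham 3), and Slc7a1, a transporter of arginine and lysine, read 436, 293 and 181 and 95.8, 80.1 and 157 (-1.42 ± 0.39). Hand2, a transcription factor gene also found in stellate cells, read 139, 273 and 334 and 88.6, 88.4 and 88.3 (-1.40 ± 0.28, adjusted p = 0.0118 without Sham-Sham 1). The remaining genes among the 15 largest lower differences, Svs1, Spats2, Mog, Calml4, Akr1b8, Glra3 and Kctd17, read under 700 on all 6 arrays and differed by -1.70 to -1.40. Of these, Svs1 (0.0397), Calml4 (0.0382) and Glra3 (0.0112) had an adjusted p under 0.05 without Sham-Sham 3, and Spats2 (0.021) without Sham-CLP 2.

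Switches at the floor were about as frequent in both directions. In 43 probe sets the 3 Sham-Sham arrays lay at the floor and the 3 Sham-CLP arrays above it, and in 46 the reverse held. Besides Ntf3 and Mid1, the cytokine gene Il16 was at least 2.57-fold higher (171, 199 and 132 in Sham-CLP), Fam178b at least 2.5-fold, Rrp15 at least 2.36-fold and Spon1 at least 1.91-fold, with an adjusted p of 0.243, 0.358, 0.405 and 0.276. Besides Atg2b, Nkx2-1 was at least 2.6-fold lower (adjusted p = 0.0996), Mxi1, an antagonist of Myc, at least 2.58-fold (206, 169 and 131 in Sham-Sham, adjusted p = 0.0779), Hes5 at least 2.57-fold, Chpf at least 2.5-fold and Tecpr1 at least 2.49-fold. Without Sham-Sham 3, Nkx2-1 (0.0204), Mxi1 (0.0135) and Hes5 (0.0492) were called lower by adjusted p. Without Sham-CLP 3, Fam178b was called higher (0.0339).

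Few genes met the limits at more than 1 probe set. Of 1471 genes with 2 or more tested probe sets, 40 had 1 or more at an unadjusted p under 0.01 without overlap in the higher direction and 36 in the lower. In 5 genes 2 probe sets met this, all higher, and in 0 genes in the lower direction. The 5 were Spink1, Lss and Cyp51, with values above, Cyb5b, a cytochrome b5 of the outer mitochondrial membrane (0.91 ± 0.26 and 0.86 ± 0.22), and Abcc9, a subunit of potassium channels (1.32 ± 0.37 and 0.91 ± 0.25, and 0.09 ± 0.17 at 1 more probe set near the floor). Without Sham-Sham 3, 1 probe set of Abcc9 was called (adjusted p = 0.0455). Probe sets of 1 gene read the same RNA and are not further samples.

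Among named probe sets with an unadjusted p under 0.01 (limma) and no overlap, those with the largest difference in mean signal were as follows. The mean signal of Lcn2 went from 669 ± 72.8 to 17292 ± 4761 (SD, n = 3) and that of A2m from 799 ± 369 to 13999.8 ± 4226. Orm1 averaged 16475 ± 1356 in Sham-Sham and 24199.9 ± 1550.5 in Sham-CLP, and Bhmt 5210.4 ± 1225 and 11699 ± 4113. Fdps averaged 4493 ± 2848 and 10565 ± 477, and Tdo2 10706 ± 1921 and 16231 ± 903. These 4 did not pass the test. On the lower side, under the same limits, the largest were Gstm1, with 13167 ± 1735 and 8100.4 ± 392, and Gstm2, with 7206 ± 514 and 4053 ± 433. The peroxisomal genes Lonp2, a protease, and Hacl1, a lyase of fatty acid alpha-oxidation, averaged 5958 ± 686 and 3246 ± 972, and 4955 ± 481 and 2558 ± 806. Cpq, a carboxypeptidase, averaged 3891 ± 577 and 2314 ± 373. Among these and Akr7a3, 0 were called.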

How the data were processed

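Each of 9 one-colour oligonucleotide arrays, 3 per group, measured total RNA of rat liver. The deposited values are linear intensity values for 15923 probe sets. The software that made them was not given in the sources used here. Per the values, the authors had scaled each array to 1 level, since the mean without 2% at each end was 500.1 to 500.2 on all 9. The 57 control probe sets entered no test.

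The intensity values were quantile normalized over 9 arrays, because deposited medians ran from 89.9% to 117.6% of their mean. They were set to a floor at the 20th percentile (64.3), and log2 was taken. limma 3.58.1 in R 4.3.3 fitted all 9 arrays with 3 group means (lmFit, eBayes). With 3 arrays against 3, an exact permutation test cannot go below p = 0.1 and was not used. The normalization and the fit were run on simulated data without the filter and without the 20th percentile floor. The planted changes were in brighter probe sets only, so calls near the floor were not covered. Alternatives were the deposited scaling, another floor, no filter and a stricter filter, the 6 arrays alone, trend and robust eBayes, array weights, the replicate number as a block, and each array left out. Symbols came from the supplied platform annotation, updated through GRCr8 RefSeq identifiers (12748 by Entrez identifier, 2 by accession, 33 kept; 312 probe sets with several symbols and 2771 with none were not named). The groups compared and the lists were chosen with earlier results of these data known.

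Lists hold 1 probe set per gene, the brightest, and are described by counts and medians with no set test. Named are called genes, the 15 largest nominal differences in each direction at p under 0.01 without overlap, up to 4 members per list with the smallest p, the 2 brightest markers, genes with 2 such probe sets, switches at the floor and the 6 largest signal differences in each direction. Arrays have no read depth; their number limits the precision.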

Additional observations from a re-analysis of the deposited data

Results flagged for a closer look

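Bacterial control probe sets lay outside the comparisons, and 5 of the 57 control probe sets were higher on all 3 Sham-CLP arrays than on all 3 Sham-Sham arrays, and above the floor, after quantile normalization. In the reverse direction 0 did the same. These 5 are 8.77% of the controls, and the Sham-CLP arrays lay above the Sham-Sham arrays in 8.1% of all tested probe sets. The 2 shares are of unlike sets, since the controls had not passed the filter on dim probe sets and many read under the floor. All 5 were probe sets of BioB, BioC or BioD. The transcripts of BioB, BioC and BioD that these read are made in the laboratory for use as hybridization controls on this type of array. The BioB 3′ probe set read 97.1 to 157.5 in Sham-Sham and 220.9 to 299.9 in Sham-CLP, a ratio of means of 2.09. The ratio was 1.44 for the middle probe set of BioB, 1.31 for the 3′ probe set of BioC, 1.30 for the 5′ probe set of BioD and 1.21 for a second middle probe set of BioB. These are signals of a control and not of liver RNA, and their part in the gene results was not tested. Groups of 3 arrays are too small for the test of a single outlying sample.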

How the results depend on the processing

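Of 8 called probe sets, 4 stayed called with the deposited scaling and 4 with the replicate number as a block, the only 4 called there, all higher. The counts of higher and lower calls were 43 and 26 of 69 with array weights. Lower calls numbered 1 with the stricter filter and 0 with the floor at the 10th percentile, only the 6 arrays, the deposited scaling, the robust fit or the replicate block, and calls in all were 8 with that floor, 8 with the 6 arrays, 8 with the robust fit and 7 with no filter. Leaving out 1 array gave 4 to 347 calls, 4 to 190 higher and 0 to 157 lower, and 980 to 2657 nominal probe sets, 492 to 1314 higher and 488 to 1343 lower. The 347 came without Sham-Sham 3, and 13 calls, 11 higher, came without Burn-CLP 2. Nominal probe sets numbered 2502 with array weights, 1271 higher and 1231 lower, and with the deposited scaling 1365 were lower. Deviations from the group means correlated at 0.081, 0.039 and 0.061 between arrays of the same title number, so the numbers were not taken as pairs.

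Among the named genes, signs turned only in ones that were not called, most of them near 0. With the deposited scaling the differences were 0.20 for Alb, 0.15 for Ctsb, 0.15 for Apoc1, -0.031 for Cybb, -0.074 for Epcam and -0.074 for the dim Abcc9 probe set. With array weights they were 0.0078 for Ctsb, -0.016 for Cd14, -0.074 for Cybb, 0.025 for Cela1 and -0.040 for Epcam. Leaving out 1 array gave ranges of -0.043 to 0.029 for Alb, -0.17 to 0.064 for Sparc, -0.064 to 0.046 for Ctsb, -0.17 to 0.33 for Cd14, -0.088 to 0.38 for Cybb, -0.16 to 0.058 for Cd4, -0.66 to 0.28 for Krt7, -0.78 to 0.19 for Krt19, -0.47 to 0.022 for Stab1, -0.59 to 0.13 for Cela1, -0.17 to 0.23 for Epcam and -0.044 to 0.55 for Csf1r. The cause was not tested. The number of arrays, and signals near the floor or at the top of the scale, limit what could be seen.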

Other observations

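The signal of 1 transcript was bright on some arrays and at or near the floor on others, in each group. Ugt2b, of the UDP-glucuronosyltransferases, chosen after its values were seen, lay at the floor in Sham-Sham 1 and Sham-CLP 1. It read 9495 and 6420.3 in Sham-Sham 2 and 3, 75.2 and 7832 in Sham-CLP 2 and 3, and 10779.6, 10469 and 125 in Burn-CLP. The difference between Sham-CLP and Sham-Sham was -2.23 ± 2.51 (adjusted p = 0.739, limma), among the largest by size and far within the spread of the arrays.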
